A study of Caenorhabditis elegans with 3 samples.

Results

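The *ule* genes of *Caenorhabditis elegans* are named for the expression of their products in the lumen of the uterus. They were taken by gene symbol, as every array feature annotated as *ule-* and a number, and 5 such genes, *ule-1* to *ule-5*, were listed. Of these, 4 had a feature on the array and were measured on all 3 arrays, among 19292 genes and unnamed features tested in all. The fifth, *ule-2* (F13G11.3), had no feature under that name or gene identifier in the platform annotation and was not analysed here. RNA of hermaphrodites at late L4, the end of larval life just ahead of the molt to the adult, was hybridised against wild-type mixed reference RNA on 3 two-colour arrays, 1 for each of RNA preps 1, 2 and 3. The sources used here give neither the genotype and culture of the late L4 animals nor the stages mixed in the reference. Whether the preps stem from separate cultures is not labelled, so the spread between them may be technical, and each array carries its own date, so prep and date cannot be told apart.

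The hermaphrodite uterus is the tube between the spermathecae and the vulva in which fertilised eggs develop until they are laid. Its lumen and the vulval connection are built during L4, and embryos first fill it in the young adult. The *ule* genes were named in work on reproductive ageing, in which secreted proteins were seen to gather in the uterus of older adults. What each protein does there is not settled enough to state a role for single members.

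Values are log2 ratios as deposited, so -1 stands for a level 2-fold lower in late L4 than in the reference. That late L4 is on top of the ratio is likely but not certain, since only the order of the RNAs in the sample descriptions says so. If the ratio ran the other way, every sign, fold direction and rank below would turn, and *ule-1* would be rank 6 from the top. No array was dye-swapped, so a dye effect specific to a gene cannot be told apart from a difference between the RNAs. Whole animals were measured, so fewer cells of a type and less RNA per cell cannot be told apart. The arrays had median log2 ratios from -0.10 to 0.01 over their measured features, and the ratios correlated across the 19292 rows at Pearson's r from 0.69 to 0.73 between preps, where genes are not independent replicates. Spot intensities were not analysed here, so it is unknown how far each signal stood above background.

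All 4 measured *ule* genes had log2 ratios below 0 on every array, and they fell into 3 patterns. *ule-1* was very low on all 3 arrays, *ule-3* and *ule-5* were moderately low on preps 1 and 2 and very low on prep 3, and *ule-4* was low on preps 1 and 3 and close to the reference on prep 2. The genes were chosen by symbol, with their log2 ratios on these 3 arrays already known, so the values are a description and were given no test of their own. In the fit across all 19292 rows the 4 genes were called lower and 0 higher, where 10.8% of all rows were called lower, and nothing is read from that count. A log2 ratio below -1 on all 3 arrays was found for 3 of the 4, beside 3.18% of all rows, and nothing is read from that count either.

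*ule-1* (W03F11.1, chromosome I) had log2 ratios of -4.76, -4.01 and -3.84 in late L4 preps 1, 2 and 3. These correspond to levels 27.03-fold, 16.1-fold and 14.3-fold lower than in the reference. The mean was -4.20 ± 0.49 (SD, n = 3), or 18.4-fold lower, the sixth lowest of the 19292 rows (rank 6). The gene held rank 9 from the bottom on prep 1, rank 8 on prep 2 and rank 33 on prep 3. The 3 preps thus placed it alike, and any 2 of them gave a mean between -4.38 and -3.92.

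*ule-3* (D1054.11, chromosome V) had log2 ratios of -1.36, -1.63 and -4.16 in late L4 preps 1, 2 and 3, or 2.57-fold, 3.10-fold and 17.9-fold lower than the reference. Its mean was -2.38 ± 1.54 (SD, n = 3). Prep 3 stood 2.80 log2 units below prep 1, and the value on prep 3 was rank 19 from the bottom of that array, while those on preps 1 and 2 were ranks 1013 and 271. Without prep 3 the mean was -1.50, a 2.82-fold lower level in place of the 5.22-fold lower level over all 3 preps.

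*ule-5* (Y62H9A.6, chromosome X) had log2 ratios of -1.07, -1.85 and -4.41 in late L4 preps 1, 2 and 3, or 2.10-fold, 3.60-fold and 21.3-fold lower than the reference. Its mean was -2.44 ± 1.75 (SD, n = 3), and without prep 3 it was -1.46, or 2.75-fold lower in place of 5.44-fold. On prep 3 it was rank 12 from the bottom, lower on that array than *ule-1*. The order of *ule-1* and the pair *ule-3* and *ule-5* therefore depended on the prep. Over preps 1, 2 and 3, the value of *ule-1* minus that of *ule-5* was -3.69, -2.16 and 0.57 log2 units.

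*ule-4* (C08F11.11, chromosome IV) had log2 ratios of -0.80, -0.07 and -1.68 in late L4 preps 1, 2 and 3. The mean was -0.85 ± 0.81 (SD, n = 3), or 1.80-fold lower than the reference. On prep 2 the level was 1.05-fold lower, close to that of the reference, and rank 10007 was near the middle of the array. The median of all rows on prep 2 was -0.097, so *ule-4* lay below 0 there but slightly above that median. Without prep 3 the mean was -0.43, and in the whole fit the gene no longer passed when prep 3 or prep 1 was left out, nor under median centring or centring with scaling. *ule-3* and *ule-5* passed in those fits but not with robust eBayes, and *ule-1* passed in all of them.

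**Figure D1:**
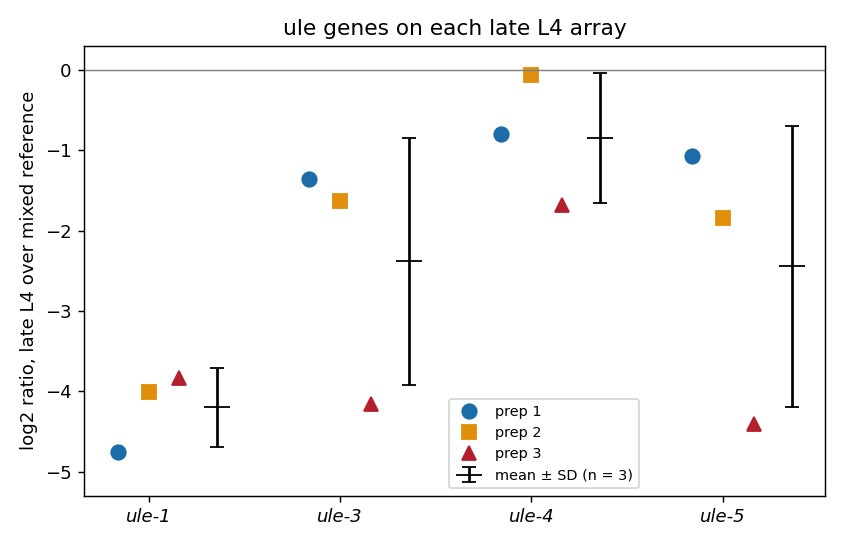
Log2 ratio of late L4 over mixed reference RNA (vertical axis) for the 4 measured *ule* genes, 1 symbol per prep, with the mean and SD of the 3 preps beside them. *ule-1* lies between -4.76 and -3.84 on all preps, while *ule-3* and *ule-5* are below -4 only on prep 3 and *ule-4* reaches -0.07 on prep 2.

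From lowest to highest mean the order was *ule-1*, *ule-5*, *ule-3* and *ule-4*. *ule-5* and *ule-3* were neighbours in that order whose means differed by 0.06 log2 units, far less than the spread of either over the preps. The ranges of *ule-3* and *ule-4* overlapped, since *ule-4* at -1.68 on prep 3 lay below both the -1.36 and the -1.63 of *ule-3*. The ranges of *ule-1* and *ule-3*, and those of *ule-1* and *ule-5*, overlapped through prep 3 alone.

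The spread over preps was itself unequal. The SD of 1.75 for *ule-5* was larger than that of 99.8% of all rows, the 1.54 of *ule-3* larger than that of 99.6%, and the 0.81 of *ule-4* larger than that of 92.5%. The median SD over all rows was 0.36 log2 units, and the 0.49 of *ule-1* exceeded 69.1% of rows. In *ule-3*, *ule-4* and *ule-5* prep 3 was the lowest of the 3 preps, which was so for 34.3% of all rows, and in *ule-1* prep 1 was the lowest. Prep 3 minus the mean of preps 1 and 2 was -2.95 for *ule-5*, -2.66 for *ule-3* and -1.25 for *ule-4*, against 0.55 for *ule-1* and a median of -0.04 over all rows. By this difference *ule-5* was rank 10 from the bottom of all rows, *ule-3* rank 19 and *ule-4* rank 329.

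Likeness between genes was measured as the Euclidean distance between their 3 log2 ratios, over 15111 other named genes for each member. It rests on 3 arrays that share 1 reference RNA and describes these arrays only. *ule-3* and *ule-5*, which lie on different chromosomes, were each other's nearest gene, at a distance of 0.44 log2 units, and differed by 0.22 to 0.29 on any array. Within a distance of 1, *ule-3* had 7 named genes and *ule-5* had 4, while *ule-4*, with its small ratios, had 622. The distance from *ule-1* to *ule-3* was 4.16 and from *ule-1* to *ule-5* 4.31, so many genes were more like *ule-1* than these members were (ranks 232 and 262). *ule-4* was 2.98 from *ule-3* and 3.27 from *ule-5*.

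Nearest to *ule-1* were *far-7*, of the fatty acid and retinol binding family, at a distance of 0.61, F15E6.3 at 0.64 and *clec-60*, a C-type lectin gene, at 0.72. Their mean log2 ratios were -3.91, -3.93 and -3.96, and all 3 were low on every prep. After *ule-5*, the genes nearest to *ule-3* were Y62H9A.3 at 0.51 and *nlp-26*, a neuropeptide-like protein gene, at 0.58. After *ule-3*, those nearest to *ule-5* were D1054.10 at 0.85 and, again, *nlp-26* at 0.85. On preps 1, 2 and 3 the log2 ratios of *nlp-26* were -1.11, -1.20 and -3.86. Nearest to *ule-4* were T02G6.5 at 0.15, *egg-3*, which encodes a phosphatase-like protein of the egg cortex, at 0.16 and C17E7.9 at 0.24. *egg-3* had ratios of -0.89, 0.05 and -1.74 on preps 1, 2 and 3, the same order of preps as *ule-4*.

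**Figure D2:**
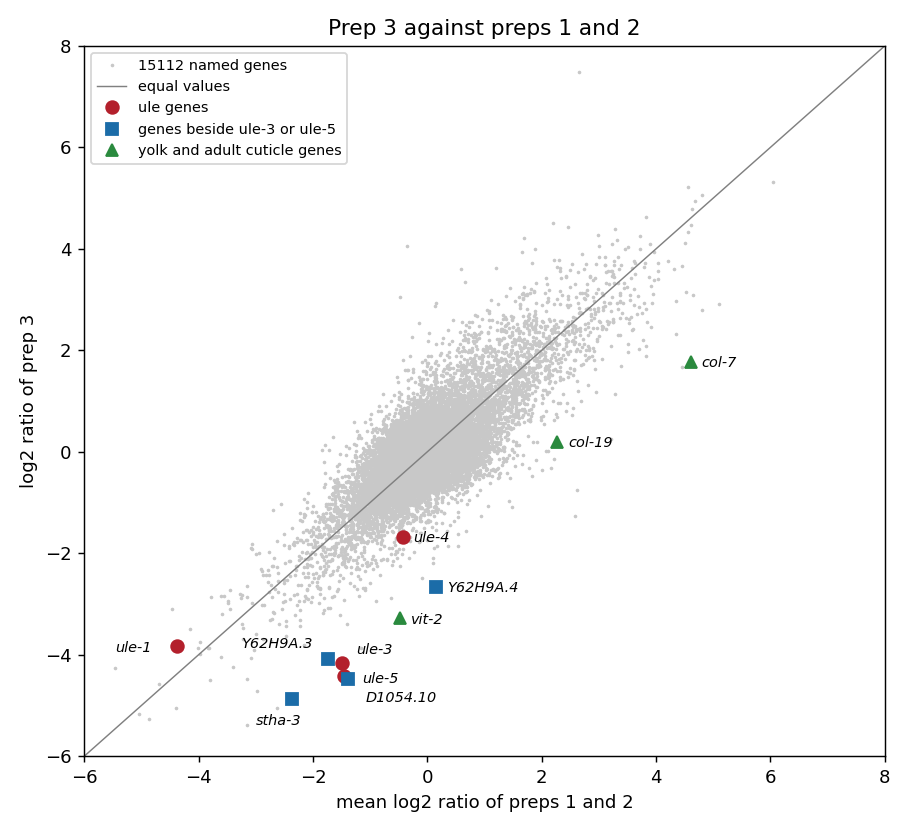
Log2 ratio on prep 3 (vertical axis) against the mean log2 ratio of preps 1 and 2 (horizontal axis) for 15112 named genes in grey, with the line of equal values. *ule-3*, *ule-5* and *ule-4* lie below the line together with the blue genes beside *ule-3* or *ule-5* and with *vit-2*, *col-7* and *col-19*, which were picked after their values were seen, and *ule-1* lies slightly above it.

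Position on the chromosome was not used to choose the genes or to measure likeness, and some of the same names came up by it. Feature numbers on the array also followed chromosome order in part. Genes side by side often fell in different number series, so the orders are only partly separate. The gene next to *ule-3* on one side is D1054.10, and that next to *ule-5* on one side is *stha-3* (Y62H9A.5). On late L4 preps 1, 2 and 3, the log2 ratios of D1054.10 were -1.60, -1.18 and -4.47. Those of *stha-3* were -2.20, -2.52 and -4.88. Both repeated the pattern of the *ule* gene beside them, with prep 3 lowest by more than 2 log2 units. D1054.10 was the fourth nearest named gene to *ule-3* by likeness (rank 4, distance 0.59), and *stha-3* was rank 9 for *ule-5* (distance 1.40).

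D1054.10 was lower in late L4 than in the reference, with a mean of -2.42 ± 1.79 (SD, n = 3; limma, adjusted p = 0.000912), or -1.39 without prep 3 (adjusted p = 0.00596). Its call was lost with robust eBayes (adjusted p = 0.14). *stha-3* was also lower, with a mean of -3.20 ± 1.46 (SD, n = 3; limma, adjusted p = 2.29e-05), or -2.36 without prep 3. On the other sides, *srh-184*, of a chemoreceptor family and with 1 annotated gene between it and *ule-3*, had a mean of -0.23 ± 0.35, and Y62H9A.7 beside *ule-5* one of -0.64 ± 0.42 (SD, n = 3), and neither passed.

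Taking in 5 measured genes on either side, a step chosen after these values were seen, extended the run beside *ule-5* and not the one beside *ule-3*. For Y62H9A.4, which is 2 genes from *ule-5*, the log2 ratios on preps 1, 2 and 3 were 0.51, -0.20 and -2.66. Y62H9A.3, the next gene on, had ratios of -1.87, -1.62 and -4.08 and was the fourth nearest to *ule-5* by likeness (rank 4). So 4 genes in a row on chromosome X, Y62H9A.3 to *ule-5*, had prep 3 lowest by more than 2 log2 units, although Y62H9A.4 was near the reference on preps 1 and 2. Y62H9A.2, the gene after them, had a ratio of -0.18 on prep 3, and D1054.9, the measured gene beyond D1054.10, one of 0.97. By feature number, *ule-5* was 2699651, Y62H9A.4 was 2699659 and Y62H9A.2, without the drop, was 2699667. *stha-3* and Y62H9A.3 were features 2709651 and 2709659. *ule-3* was feature 2709107, D1054.10 beside it was 2699115, and D1054.9, without the drop, was 2709115. Y62H9A.7, on the other side of *ule-5*, was 2709643 and had a ratio of -0.65 on prep 3. Some genes with close feature numbers thus shared the drop and others did not, and D1054.10 and *stha-3* shared it with a *ule* gene of distant number. Spot positions and probe sequences were not analysed here, and the part of either in these runs was not tested.

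**Figure D3:**
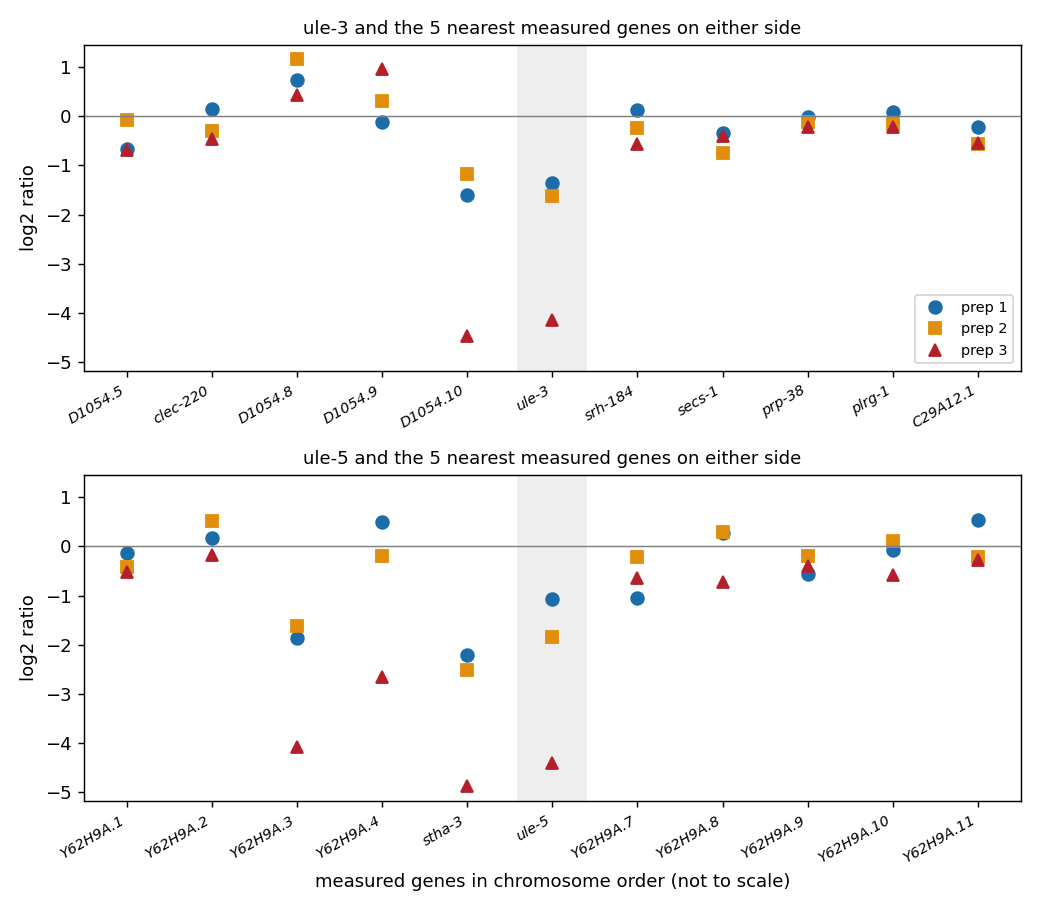
Log2 ratio of late L4 over mixed reference RNA on preps 1, 2 and 3 for *ule-3* (top) and *ule-5* (bottom), shaded, and the 5 nearest measured genes on either side in chromosome order. On prep 3 the values below -4 are those of D1054.10 and *ule-3* in the top panel and of Y62H9A.3, *stha-3* and *ule-5* in the bottom panel, and Y62H9A.4 is at -2.66.

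The neighbours of *ule-1* and *ule-4* had other patterns. Beside *ule-1*, W03F11.5 had log2 ratios of -0.72, -0.88 and -0.61 on late L4 preps 1, 2 and 3 and *gcy-17*, a receptor guanylate cyclase gene, had 0.13, 0.47 and -0.77. W03F11.5 was lower (mean -0.74 ± 0.14, SD, n = 3; limma, adjusted p = 0.035), but with fewer arrays fitted it missed the threshold whichever prep was left out (adjusted p from 0.093 to 0.18). W03F11.4, the third measured gene beyond *ule-1* and chosen after its value was seen, had a mean of 2.44 ± 0.54, opposite in sign to *ule-1*. The nearest measured genes to *ule-4* were not adjacent to it, with 9 annotated genes between it and *srz-29* on one side and 1 between it and C08F11.10 on the other. The chemoreceptor family gene *srz-29* averaged -0.27 ± 0.50 and did not pass, and C08F11.10 was higher (1.51 ± 0.39, SD, n = 3; limma, adjusted p = 0.000355).

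Other genes with a low value on prep 3 were named after their values were seen. Among the 20 rows in which prep 3 lay farthest below the mean of preps 1 and 2 were 11 named genes, of which 2 were *ule* genes and 4 were collagen genes (*col-142*, *col-80*, *col-7* and *col-159*). The others were *epic-1*, D1054.10, Y62H9A.4, *vit-2* and *nlp-26*. *vit-2*, which encodes a yolk protein made in the adult hermaphrodite intestine, stood at log2 ratios of -0.68, -0.28 and -3.28 on the 3 preps. *col-7*, an adult cuticle collagen gene, had ratios of 4.94, 4.27 and 1.78, and *col-19*, another, had 2.89, 1.65 and 0.20. Other genes of the same kinds did not share this drop. For the yolk protein genes *vit-5* and *vit-6*, prep 3 minus the mean of preps 1 and 2 was 0.06 and -0.36, against -2.80 for *vit-2*. For the adult cuticle genes *bli-1*, *bli-2* and *rol-6* it was -0.29, 0.30 and 0.61, and prep 3 was lowest for 2 of the 5 measured. The genes with this drop thus lay above as well as below the reference on preps 1 and 2.

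The lists of other reproductive and stage genes did not all move with prep 3, which was the lowest prep for 34.3% of all rows. The median of 18 eggshell and oocyte surface genes took values of -0.51, -0.31 and -1.02 over preps 1, 2 and 3, and prep 3 was the lowest for 12 of them. That of 8 oocyte genes was -0.72, -0.83 and -1.26, with prep 3 lowest for 5. For 10 germ line genes it was 0.78, 0.81 and 0.61, with prep 3 lowest for 6. The median of 3 yolk protein genes was 0.20, -0.28 and -0.09 on preps 1, 2 and 3, so prep 2 was lowest. Prep 3 was lowest for 2 of these 3 genes, but in *vit-6* only at -0.04 against -0.01 on prep 2. The 34 sperm genes had medians of 3.22, 2.60 and 2.93 on preps 1, 2 and 3, and prep 3 was lowest for 10. It was lowest for 6 of 25 egg-laying genes. The median of 26 genes of the uterus, spermatheca and gonadal sheath was 0.18, 0.08 and 0.06, with prep 3 lowest for 11. The part of these other cell types or of stage in the *ule* values was not tested.

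Of 26 measured genes known for building or working the uterus, spermatheca and gonadal sheath, 6 were higher (23.1%), 1 was lower (3.8%) and 19 did not pass. Of all rows, 12.0% were called higher and 10.8% lower. The median log2 ratio was -2.41 for the 4 *ule* genes, -0.02 for these 26 and -0.03 for all rows. The *ule* genes were chosen with their values known, so these medians are set side by side as description only. The *ule* median was -1.22, -1.74 and -3.997 over preps 1, 2 and 3, and without prep 3 it was -1.48. The median of the 26 changed sign under centring (0.026), with scaling (0.029) and without any 1 prep. *unc-52*, which encodes the basement membrane proteoglycan perlecan, was highest at 2.04 ± 0.36 (SD, n = 3; limma, adjusted p = 2.30e-05). The lower gene was *spv-1*, a regulator of spermathecal contractility, at -0.78 ± 0.14 (adjusted p = 0.026), which missed the threshold whichever prep was left out (adjusted p from 0.058 to 0.12). The others that were higher, chosen after their values were seen, were *nmy-1*, a non-muscle myosin gene (1.65 ± 0.25), *him-4*, which encodes hemicentin (1.58 ± 0.80), the filamin gene *fln-1* (1.36 ± 0.53), the papilin gene *mig-6* (1.32 ± 0.21) and the metalloprotease gene *gon-1* (0.94 ± 0.27), which missed the threshold when prep 1 or prep 3 was left out (limma, adjusted p = 0.075 and 0.054). Several of these act in many tissues. Also picked after their values were seen, *egl-13*, a transcription factor gene needed for uterine cell fates, had a mean of -0.0045 ± 0.42, and *lin-12*, the Notch receptor gene that specifies those cells, had one of -0.20 ± 0.05, and neither passed.

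The eggshell forms around each fertilised egg as it enters the uterus. Of 18 eggshell and oocyte surface genes, 7 were lower (38.9%, where 10.8% of all rows were lower), 0 were higher and 11 did not pass, with a median of -0.51. The lowest was the caveolin gene *cav-1*, at log2 ratios of -4.01, -2.17 and -1.89 over the preps in their order (limma, adjusted p = 3.18e-05), so there prep 1 and not prep 3 was lowest. Of the called genes the one with the smallest difference was *gna-2*, of the sugar pathway that feeds chitin synthesis, at -0.77 ± 0.52 (adjusted p = 0.044), which missed the threshold when prep 3 was left out (adjusted p = 0.34) and under centring (adjusted p = 0.071). Leaving out prep 3 brought the lower genes to 4, as did centring with scaling. Of 8 oocyte genes, 4 were lower (beside the same 10.8% of all rows) and 0 higher, or 2 lower without prep 3. Of 3 measured yolk protein genes, only *vit-2* was lower (-1.41 ± 1.63, SD, n = 3; limma, adjusted p = 0.023), and without prep 3 its mean was -0.48 (adjusted p = 0.34). The call of *vit-2* was also lost under centring, centring with scaling and robust eBayes (limma, adjusted p = 0.064, 0.093 and 0.26).

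Of 25 genes of egg laying and its circuit, 8 were lower (32.0%, where 10.8% of all rows were lower), 0 were higher and 17 did not pass, with a median of -0.55. The lowest was *ida-1*, a dense core vesicle gene, at -1.83 ± 0.21 (SD, n = 3; limma, adjusted p = 4.49e-05). The called gene closest to 0 was the neuropeptide gene *flp-17* at -0.88 ± 0.33 (adjusted p = 0.016), which missed the threshold when prep 1 or prep 3 was left out (adjusted p = 0.11 and 0.088). Of 5 adult cuticle genes, all 5 were higher, where 12.0% of all rows were, from *rol-6* at 0.97 ± 0.95 to *col-7* at 3.66 ± 1.67. *rol-6* missed the threshold when prep 2 or prep 3 was left out (adjusted p = 0.22 and 0.21) and under centring (adjusted p = 0.057).

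For the remaining cell types and stages that whole animals or the reference could hold, 32 of 34 sperm genes, 5 of 10 germ line genes and 4 of 9 intestinal genes were higher and 0 of each were lower, where 12.0% of all rows were higher and 10.8% lower. Of 9 genes of the embryo, 3 were lower and 0 higher (1 lower whichever prep was left out), and of 9 male genes, 1 was lower (11.1%, near the 10.8% of all rows) and 0 higher. That male gene, *clec-223*, named after its value was seen, had ratios of -2.22, 0.56 and -1.92 and lost its call under centring (adjusted p = 0.11).

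**Figure D4:**
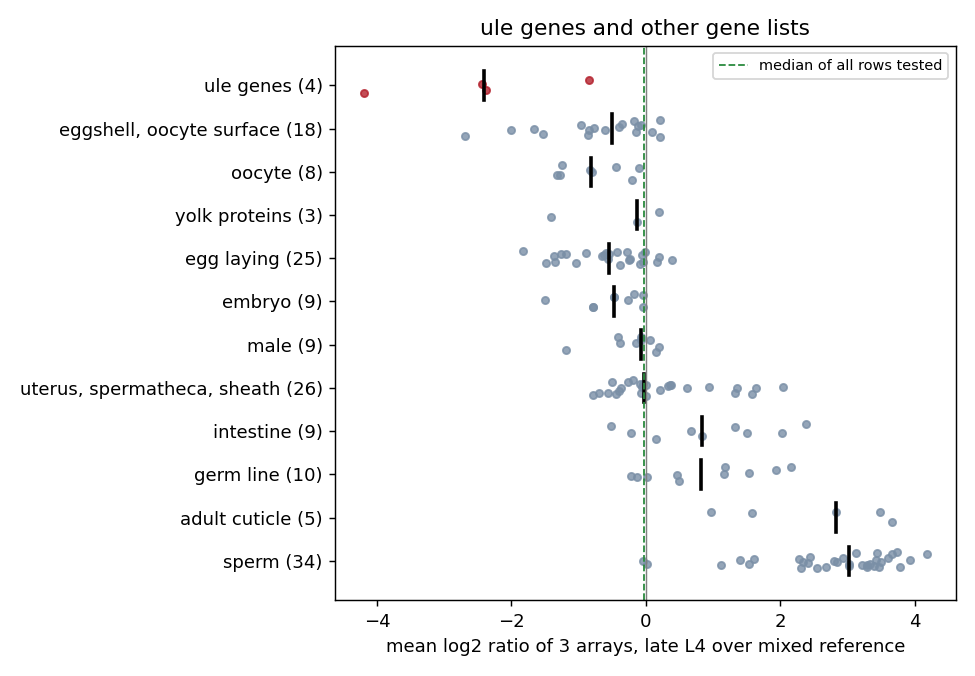
Mean log2 ratio of late L4 over mixed reference RNA on 3 arrays (horizontal axis) for the 4 *ule* genes in red and for the measured genes of 11 lists in grey, with the number of genes in brackets, black bars at the medians and a dashed line at the median of all 19292 rows. The *ule* median of -2.41 (-1.48 without prep 3) lies left of each list's median, the lowest of which is -0.82 for the 8 oocyte genes. *ule-4* at -0.85 lies within the range of the eggshell genes. The *ule* genes were chosen with their values known, so their place is description only.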

How the data were processed

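The authors deposited log2 values for 3 two-colour arrays of 20000 features. Per the labels, channel 2 held late L4 RNA and channel 1 the mixed reference. Raised as powers of 2, 100% of the values were multiples of 0.001 (tolerance 0.05 of a step), as log2 ratios rounded to 3 decimals would be. The sources used here name no dye, background correction, normalization, centring or probe type, and values were used as deposited. The platform annotation gave 15655 features 1 gene symbol, 198 several and 4147 none, and 15569 symbols were updated by Entrez ID with a RefSeq gene table (assembly WBcel235), which also gave chromosome names and neighbouring genes. The array's build is not named, so no coordinates are given. Each *ule* gene had 1 feature. No table of sequences was used, so none are printed.

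Within each array, features of a gene that were measured on all 3 arrays were averaged, giving 19292 rows, 15112 of them named. The mean was tested against 0 with limma 3.58.1 (R 4.3.3; lmFit, eBayes, two-sided, Benjamini-Hochberg over all rows, adjusted p under 0.05), with 2 residual degrees of freedom and 12.8 prior ones. The reference had no replicate, so its own spread is left out, and the number of arrays limits the precision. The fit was tested on simulated data. The *ule* genes and the lists were chosen with earlier results of these data known. Named genes were the members, the 3 genes nearest each by distance, the nearest measured gene on either side, and the highest and lowest called gene of the uterus, eggshell, yolk, egg-laying and adult cuticle lists. Others are marked as chosen after their values were seen.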

Additional observations from a re-analysis of the deposited data

How the results depend on the processing

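No paired analysis was possible because there is 1 group. The alternatives were planned, apart from the 5 neighbours on either side and the list of rows lowest on prep 3, which were added after seeing the data. The mean of each *ule* gene stayed below 0 under median centring (from -4.15 for *ule-1* to -0.80 for *ule-4*), centring with scaling, values on at least 2 arrays, features not averaged and each left-out prep. Leaving out 1 prep gave means from -4.38 to -3.92 for *ule-1*, -2.89 to -1.50 for *ule-3*, -1.24 to -0.43 for *ule-4* and -3.13 to -1.46 for *ule-5*. Of the 4 genes, 3 were called lower without prep 1, without prep 3 and under either centring, and 2 with robust eBayes.

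Over all rows, 2322 were called higher and 2092 lower. Leaving out 1 prep gave 1804 to 2055 higher and 1337 to 1776 lower, with fewer arrays fitted. A call lost in such a fit may reflect the smaller number of arrays as well as the prep. These fits also differed in scale from each other. In limma the adjusted p of *ule-5* was 5.98e-14 without prep 2 and 0.0056 without prep 3. The stricter threshold of 0.01 gave 1217 lower. Without moderation limma called 0 in each direction, since 2 degrees of freedom per gene remained, and 1874 higher and 2340 lower rows had an unadjusted p under 0.05. Signal over background is unknown, so what it limits was not analysed here.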
